A study of Mus musculus with 12 samples.

Results

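The ephrin ligands are the 8 mouse genes Efna1, Efna2, Efna3, Efna4, Efna5, Efnb1, Efnb2 and Efnb3. Members were chosen by gene symbol: every probe set of the array that the platform's annotation assigns to one of these symbols was taken. This gave 17 of the array's 45101 probe sets. A probe set was kept where 3 or more arrays gave a signal over 107, which is the median of the whole table. By that filter 13 of the 17 probe sets were kept, and 7 of the 8 genes were among the 12845 genes tested. Efna1 did not pass.

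The study profiled RNA of cells sorted from the neural tube of ePet-EYFP mouse embryos at E12.5, in which a Pet-1 enhancer drives yellow fluorescent protein in serotonin (5HT) neurons. The labels give every group this genotype and age. The neural tube was cut at the pontine flexure, and each part was sorted by fluorescence, giving 4 groups of 3 biological replicates. R+ holds the YFP-positive 5HT neurons of the rostral domain, R- the YFP-negative cells of the same domain, and C+ and C- are the matching populations of the caudal domain, which reaches to the spinal cord. Each of the 12 Affymetrix Mouse 430 2.0 arrays holds RNA from 200000 sorted cells, amplified once. The negative groups are defined by lacking YFP alone, so they mix progenitors, other neurons and non-neural cells. The labels do not say whether replicates came from separate litters, so a p-value here covers the spread between these 12 samples alone. In such sorted bulk samples, fewer cells of a type and less RNA per cell cannot be told apart.

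Ephrins are membrane-bound ligands of the Eph receptor tyrosine kinases. The A class is held by a lipid (GPI) anchor and mainly binds EphA receptors, while the B class spans the membrane, mainly binds EphB receptors and has a cytoplasmic tail with a site for PDZ-domain proteins. Contact between cells can signal in both directions, forward through the receptor and in reverse through the ligand, and in the developing hindbrain and midbrain it keeps cell groups apart and repels or attracts growing axons.

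In the rostral domain Efnb2 was 2.73-fold and Efna5 1.73-fold lower in 5HT neurons than in the other cells. In the caudal domain Efnb2 was 3.53-fold and Efnb1 1.68-fold lower in 5HT neurons. Efna3 was 1.92-fold lower in rostral than in caudal YFP-negative cells, a call that was lost in 16 of 28 alternative fits described below. Efnb3 was the tested ligand with a higher signal in 5HT neurons in every replicate pair of both domains, a difference that passed the test once arrays of the same replicate number were paired. These calls are from limma on log2(signal + 10), at a Benjamini-Hochberg adjusted p under 0.05 over all 12845 genes. Folds and differences are on that scale. Their standard error (SE) is from the spread of the 12 arrays within their groups, which limma adjusts towards that of other genes.

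Arrays carrying the same replicate number deviated together, so each contrast was also fitted with the replicate number as a block. Between R+ and R-, 2 of the 7 tested ephrins were called, both lower, beside 12.2% of all genes, and with the replicate block 1 was higher and 3 were lower, beside 20.9%. Between C+ and C-, 2 were called, both lower, beside 13.1% of all genes, and with the block 1 was higher and 2 were lower, beside 22.8%. The members' median log2 difference was -0.25 in the rostral and -0.55 in the caudal comparison, where the medians over all genes were -0.014 and -0.039. With so few members, these shares do not set the ephrins apart from the array as a whole.

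**Figure D1:**
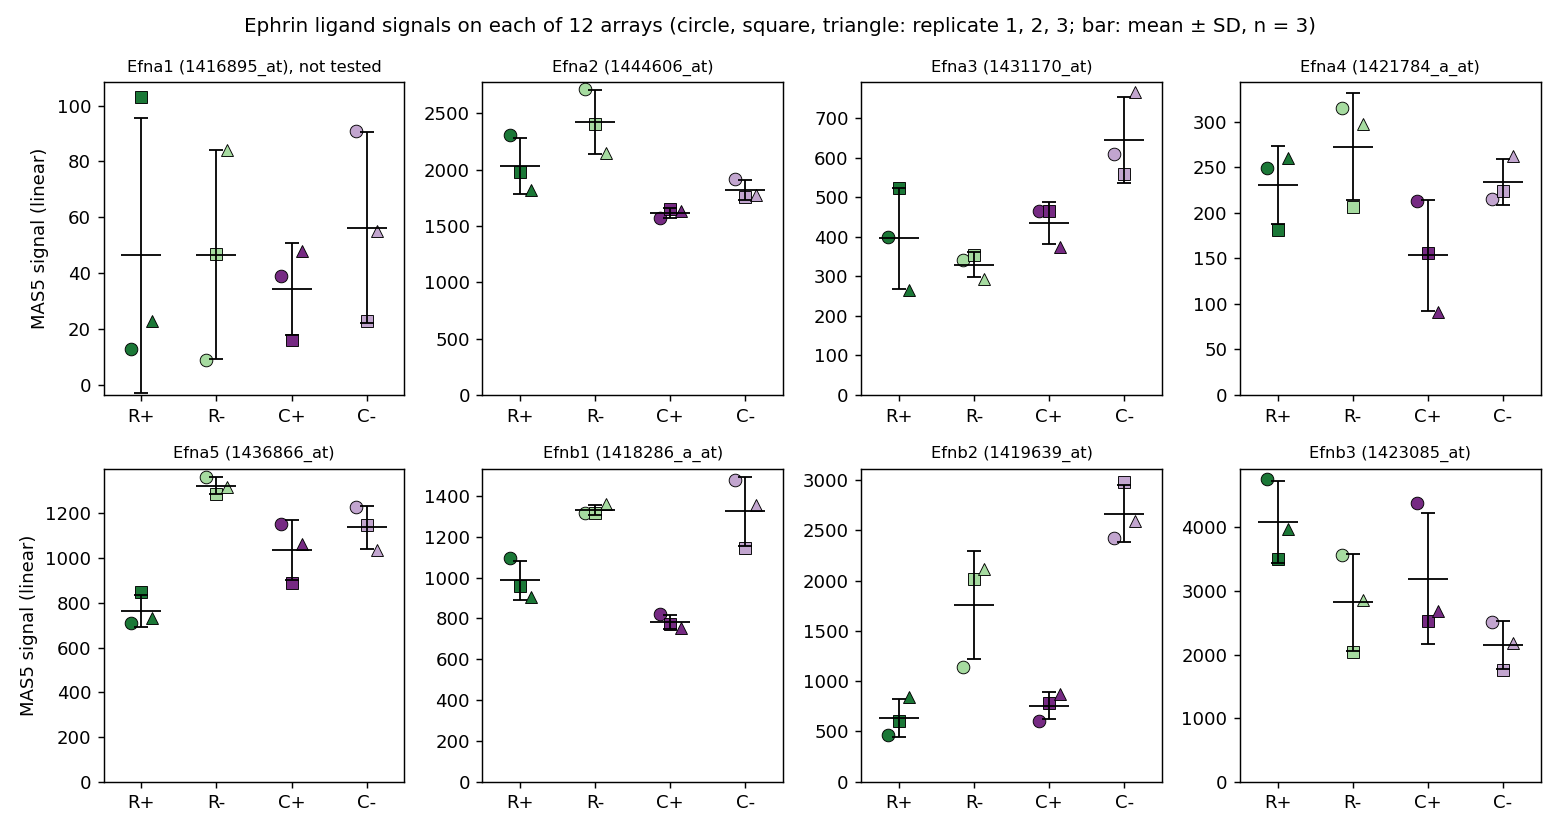
Signal of the 8 ephrin genes on each array (vertical axes, signal in array units), with 1 point per array for R+, R-, C+ and C- (circle, square and triangle for replicates 1, 2 and 3) and a bar at each group's mean ± SD (n = 3), on a scale that differs between panels. The Efnb2 points of both 5HT groups lie at or under 869 and those of both negative groups at or over 1142, while every Efna1 point lies under the filter of 107.

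The sort gives the setting for these values. The summed signal of 8 serotonin markers, such as Tph2 (serotonin synthesis) and Slc6a4 (serotonin uptake), was 77382 to 84890 in R+ and 52816 to 57416 in C+. In R- it was 4718 to 5097, and in C- 2258 to 3350. In both domains 8 of 8 were called higher in 5HT neurons. Tph2 was at or under 107 on all R- arrays, and Tph2, Slc6a4, Slc18a2 and Gchfr were so on all C- arrays. These markers therefore passed the filter through other groups. The 8 progenitor markers summed to 19064 to 20745 in R+ and 20053 to 25650 in C+, against 46529 to 57873 in R- and 48052 to 51929 in C-. Markers of red blood cells were also lower in both 5HT groups (4 of 4), where Alas2 was at or under 107 on all arrays. The 3'/5' ratio of the beta-actin control probe sets, a sign of RNA quality, lay between 2.64 and 4.39 in the 6 rostral samples and between 4.52 and 7.69 in the 6 caudal samples. The domains did not overlap in that ratio, so it and the domain cannot be told apart.

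Among the B class, Efnb2, the EphB4 ligand that marks arterial endothelium and is also made by neural cells, had 4 probe sets. Efnb1, an X-linked ligand made by neural progenitors, had 3, and Efnb3, a ligand of the ventral midline that repels corticospinal axons, had 1. Promoter sequences of the first pair are given because both genes were called in the caudal comparison. They are RefSeq sequences of assembly GRCm38.p6, 250 bases before to 50 after the gene's start, written along the gene's strand. The Efnb1 stretch is chrX:99135811-99136110 on the plus strand, and the Efnb2 stretch is chr8:8661193-8661492 on the minus strand. Capitals mark 3 motifs on either strand, which are GGGCGG, the motif CCAAT, and also TGGGAA.
Efnb1: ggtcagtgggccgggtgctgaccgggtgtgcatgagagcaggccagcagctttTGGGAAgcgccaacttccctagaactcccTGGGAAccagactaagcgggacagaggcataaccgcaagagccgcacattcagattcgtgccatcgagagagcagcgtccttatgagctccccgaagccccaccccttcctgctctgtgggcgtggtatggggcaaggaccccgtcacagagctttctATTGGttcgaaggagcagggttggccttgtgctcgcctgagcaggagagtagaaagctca
Efnb2: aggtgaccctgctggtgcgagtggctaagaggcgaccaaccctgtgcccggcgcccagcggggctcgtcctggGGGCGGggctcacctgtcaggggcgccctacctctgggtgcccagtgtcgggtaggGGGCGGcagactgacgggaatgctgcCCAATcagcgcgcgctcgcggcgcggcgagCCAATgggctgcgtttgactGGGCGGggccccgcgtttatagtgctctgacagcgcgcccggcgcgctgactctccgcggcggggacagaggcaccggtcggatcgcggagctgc

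The Efnb2 stretch was richer in G and C (72.3%) than the Efnb1 stretch (59.7%), and the median over all RefSeq promoters was 52.7%. GGGCGG stood 3 times in the Efnb2 stretch and 0 times in that of Efnb1. CCAAT stood 2 times in the first and 1 time in the second, and TGGGAA 2 times in Efnb1 alone of this pair. RefSeq gave a promoter for 7 of the 8 ephrins. Of these genes 5 held GGGCGG, 4 CCAAT, 2 TGGGAA, 1 TATAA, 2 GATA and 2 CANNTG in at least 1 promoter, searched on both strands. Among all 32841 promoters the shares were 35.7% for GGGCGG, 37.4% for CCAAT, 25.6% for TGGGAA, 24.9% for TATAA, 57.9% for GATA and 72.3% for CANNTG. The shares are per single promoter, while the ephrin counts are per gene over 9 promoters, so the units differ. These matches describe letters and not binding.

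Efnb2 was lower in 5HT neurons than in the other cells of both domains. Its main probe set gave signals of 459, 600 and 841 in R+ (mean 633 ± 193, SD, n = 3) and 1142, 2018 and 2111 in R- (1757 ± 535). In C+ the signals were 606, 783 and 869 (753 ± 134), and in C- they were 2425, 2981 and 2592 (2666 ± 285). All 6 arrays of 5HT neurons lay under all 6 arrays of the other cells. The log2 difference was -1.45 ± 0.25 between R+ and R- (adjusted p = 0.000994, 95% interval -1.98 to -0.92) and -1.82 ± 0.25 between C+ and C- (adjusted p = 0.000121, interval -2.35 to -1.29). The domains' differences themselves differed by 0.37 ± 0.35 (adjusted p = 0.940). Without the arrays of replicate 2, the rostral difference was -1.31 with an adjusted p of 0.071, and on the mean of the kept Efnb2 probe sets it was -0.75 (adjusted p = 0.0478).

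A second Efnb2 probe set gave the same direction, with a mean of 295 in R+ against 531 in R-, and of 248 in C+ against 776 in C-. Its log2 difference was -0.83 ± 0.20 in the rostral domain (adjusted p = 0.0218) and -1.62 ± 0.20 in the caudal domain (adjusted p = 0.000147), from the fit over all kept probe sets. The third, with means between 68 and 101, gave 0.03 ± 0.54 and -0.49 ± 0.54, neither called, and the fourth did not pass the filter. Of the cell types that could carry Efnb2 into the negative groups, endothelial markers summed to 674 to 795 in R+, 861 to 911 in R-, 711 to 823 in C+ and 1084 to 1770 in C-. Of 5 such genes tested, 0 were called lower in the rostral and 2 in the caudal 5HT neurons. Of the 8 endothelial markers listed, 4 were at or under 107 on all arrays of R+, 4 on those of R- and 4 on those of C+. On the C- arrays this held for 2, Pecam1 and Tie1. Markers of some other cell types, though not of all, were lower in 5HT neurons as Efnb2 was. Of 6 mesenchyme markers tested, 3 were called lower in each domain and 1 was called higher in the caudal domain. Floor plate markers were called lower in 1 of 5 (rostral) and higher in 4 of 5 (caudal). Progenitor markers were called lower in 8 of 8 (rostral) and 7 of 8 (caudal), and cycling cell markers in 5 of 5 and 4 of 5. Glutamate neuron markers were called lower in 4 of 4 and 4 of 4, and GABA and glycine neuron markers in 6 of 6 and 5 of 6. Of the markers listed, Aurkb, Tlx3 and Lmx1a were at or under 107 on all arrays of R+ and of C+. The same held for Slc6a5 in R+ and for Slc17a7 in C+. Any of these that was tested passed the filter through other groups. The caudal marker counts also stand beside the lower Efnb1 values described next, and the rostral ones beside the lower Efna5 values. Efna5 was not called lower in caudal 5HT neurons (-0.14, adjusted p = 0.623). The summed glutamate markers were 657 to 1260 in R+ against 6967 to 9483 in R-, and 656 to 1301 in C+ against 7845 to 9790 in C-. The summed GABA and glycine markers were 1175 to 1435 in R+ against 8815 to 11423 in R-, and 3404 to 3996 in C+ against 11671 to 14674 in C-. The part of these cells in the ephrin results was not tested.

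Efnb1 was lower in caudal 5HT neurons. Its main probe set gave 820, 773 and 751 in C+ (781 ± 35.2) and 1479, 1145 and 1354 in C- (1326 ± 169). In R+ it gave 1094, 960 and 905 (986 ± 97.2), and in R- 1315, 1316 and 1359 (1330 ± 25.1). The groups stood in the order C+, R+, then C- and R-, with no overlap except between the negative groups. The caudal difference was -0.75 ± 0.14 (adjusted p = 0.00186). The rostral difference was -0.43 ± 0.14 (adjusted p = 0.0591), and with the replicate block it passed, at an adjusted p of 0.0144. The other 2 Efnb1 probe sets gave -0.08 ± 0.32 and -0.19 ± 0.49 there, not called with or without the block, and the mean of probe sets gave -0.23 (adjusted p = 0.563). The difference between domains in 5HT neurons, 0.33 ± 0.14 (adjusted p = 0.172), was not called with the block either (adjusted p = 0.0549). The second probe set gave 1.11 ± 0.32 for that difference (adjusted p = 0.0733) and was called higher in R+ with the block (adjusted p = 0.0264).

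The caudal Efnb1 call rests on that probe set. Without the arrays of replicate 3 the difference was -0.70 with an adjusted p of 0.111, with array medians set equal it was -0.65 (adjusted p = 0.0505), and on the mean of the kept Efnb1 probe sets it was -0.33 (adjusted p = 0.339). A second probe set gave -1.06 ± 0.32 (adjusted p = 0.0618), which passed with the replicate block (adjusted p = 0.0322). The third gave the opposite sign, 0.81 ± 0.49 (adjusted p = 0.414), where signals were 263, 347 and 433 in C+ and 325, 339 and 58 in C-. The value of 58 on 1 array lay far under the others of that probe set.

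Efnb3 differed from the other B ligands in sign. Its signals were 4768, 3496 and 3983 in R+ (4082 ± 642) and 3573, 2047 and 2854 in R- (2825 ± 763). In C+ they were 4388, 2522 and 2679 (3196 ± 1035), and in C- 2511, 1760 and 2183 (2151 ± 377). The rostral groups overlapped, while the lowest C+ array lay just over the highest C- array. The log2 difference was 0.55 ± 0.23 between R+ and R- (adjusted p = 0.159) and 0.54 ± 0.23 between C+ and C- (adjusted p = 0.165), neither called. Within replicate numbers, 5HT neurons were higher in 3 of 3 pairs of each domain, and with the replicate block both differences were called (adjusted p = 0.00207 and 0.00243).

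Since Efnb3 is known in the floor plate, markers of that tissue were set beside it. They summed to 9261 to 13306 in R+, 12483 to 13448 in R-, 12418 to 23541 in C+ and 6789 to 7175 in C-. Of 5 tested, 4 were called higher in C+ than in C-, as Efnb3 was with the block, while 1 was called lower in R+ than in R-, where Efnb3 was higher with the block. Their part in the caudal difference was not tested.

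**Figure D2:**
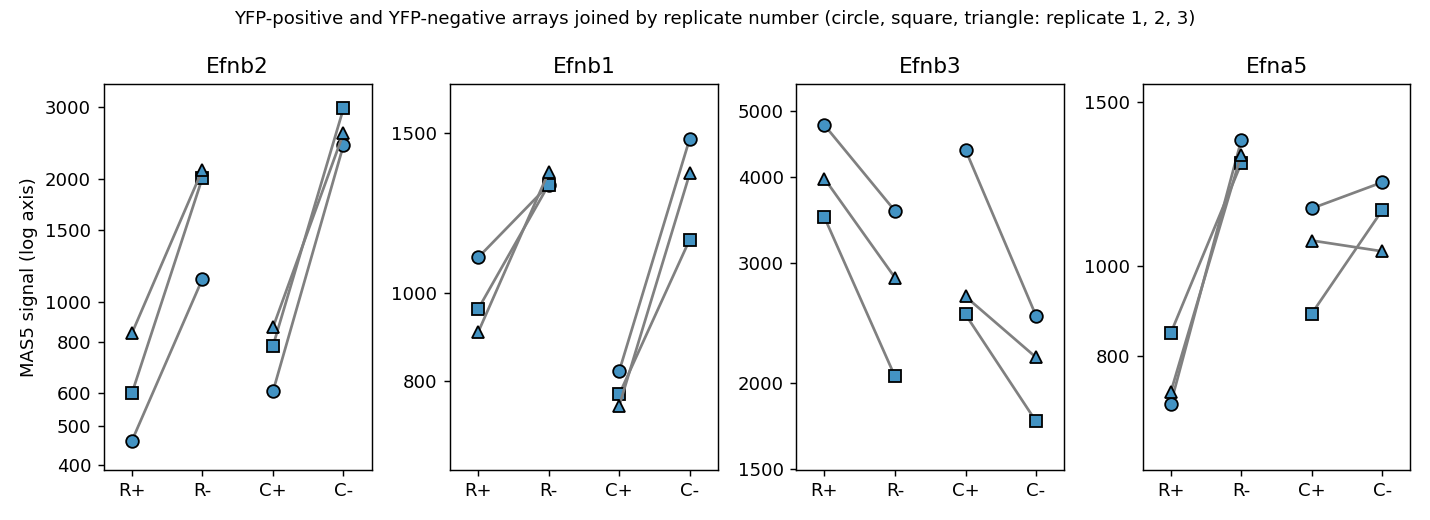
Signal of Efnb2, Efnb1, Efnb3 and Efna5 (vertical log axes, signal in array units) on arrays joined by replicate number, each line running from the YFP-positive group at left to the YFP-negative group of its domain at right. The Efnb2 lines rise and the Efnb3 lines fall towards the YFP-negative group in 3 of 3 pairs of both domains.

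Among the A class, Efna5, a repellent ligand that helps map retinal axons in the midbrain, was lower in rostral 5HT neurons. Its signals were 711, 847 and 732 in R+ (763 ± 73.2) and 1365, 1289 and 1317 in R- (1324 ± 38.4). In C+ they were 1153, 889 and 1065 (1036 ± 134), and in C- 1230, 1148 and 1037 (1138 ± 96.9). The R+ arrays lay under all other arrays and the R- arrays over all others, while C+ and C- overlapped. The rostral difference was -0.79 ± 0.14 (adjusted p = 0.0017, 95% interval -1.10 to -0.48), and the caudal one was -0.14 ± 0.14 (adjusted p = 0.623). The difference between these, -0.65 ± 0.20, was not called (adjusted p = 0.255, and 0.0781 with the replicate block), so the domains are not shown to differ. Without the arrays of replicate 3 the rostral value was -0.77 with an adjusted p of 0.0894. The second Efna5 probe set did not pass the filter, with signals of 5 to 48.

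Efna3, a ligand that several EphA receptors bind, was called between the YFP-negative groups. Its main probe set gave 342, 354 and 294 in R- (330.0 ± 31.7) and 609, 560 and 766 in C- (645 ± 108), groups that did not overlap. In R+ it gave 399, 523 and 266 (396 ± 129), and in C+ 465, 466 and 374 (435 ± 52.8). The difference between R- and C- was -0.94 ± 0.23 (adjusted p = 0.038), and the second probe set gave -0.99 ± 0.20 (adjusted p = 0.0224). Fitted with the beta-actin 3'/5' ratio as a covariate, the value was -0.87 with an adjusted p of 0.193, and with the block added it was -0.50 with an adjusted p of 0.674. The call was lost without any 1 array of R- or of C-, and without C+ replicate 2. Mesenchyme markers summed to 1007 to 1622 in R- and 2550 to 3772 in C-, with 1 of 6 tested called lower in R-, and their part was not tested. Within domains, Efna3 gave 0.21 ± 0.23 (rostral, adjusted p = 0.677) and -0.55 ± 0.23 (caudal, adjusted p = 0.141).

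Efna2, which shares the midbrain mapping role of Efna5, was not called in any comparison without the block. Its signals were 2306, 1981 and 1819 in R+ (2035 ± 248), 2719, 2407 and 2149 in R- (2425 ± 285), 1569, 1651 and 1637 in C+ (1619 ± 43.9) and 1920, 1760 and 1776 in C- (1819 ± 88.1). On this main probe set, each rostral group lay over its caudal counterpart with no overlap. The differences between domains were 0.32 ± 0.13 in 5HT neurons (adjusted p = 0.160) and 0.41 ± 0.13 in the other cells (adjusted p = 0.139), and both passed with the replicate block (adjusted p = 0.0399 and 0.0235). With the block and the beta-actin ratio together, they were 0.48 and 0.54 with adjusted p-values of 0.442 and 0.282. Fitted over all kept probe sets with the block, the main probe set was not called in 5HT neurons (adjusted p = 0.0515). In the other cells it was called (adjusted p = 0.0338). The second Efna2 probe set overlapped in both comparisons and was not called in either, with or without the block. It gave 0.63 ± 0.33 between R+ and C+ (adjusted p = 0.108 with the block). Between R- and C- it gave 0.10 ± 0.33 (adjusted p = 0.862 with the block).

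Efna4, a further GPI-anchored ligand, was not called in any contrast, with or without the block. It gave 249, 181 and 260 in R+ (230.0 ± 42.8), 315, 206 and 297 in R- (273 ± 58.4), 213, 156 and 91 in C+ (153 ± 61.0) and 215, 224 and 262 in C- (234 ± 24.9). The largest difference was -0.65 ± 0.29 between C+ and C- (adjusted p = 0.190), groups that did not overlap. Efna1, a ligand also known from blood vessels, gave 13, 103 and 23 in R+, 9, 47 and 84 in R-, 39, 16 and 48 in C+ and 91, 23 and 55 in C- on its brighter probe set. Neither Efna1 probe set was over 107 on any array, and with no filter its adjusted p was at least 0.776 in all 5 contrasts. Efna1, Efna3 and Efna4 are neighbours on chromosome 3 in RefSeq GRCm38.p6, with 4 long non-coding RNA genes and no protein-coding gene listed between the first and the last apart from Efna3.

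**Figure D3:**
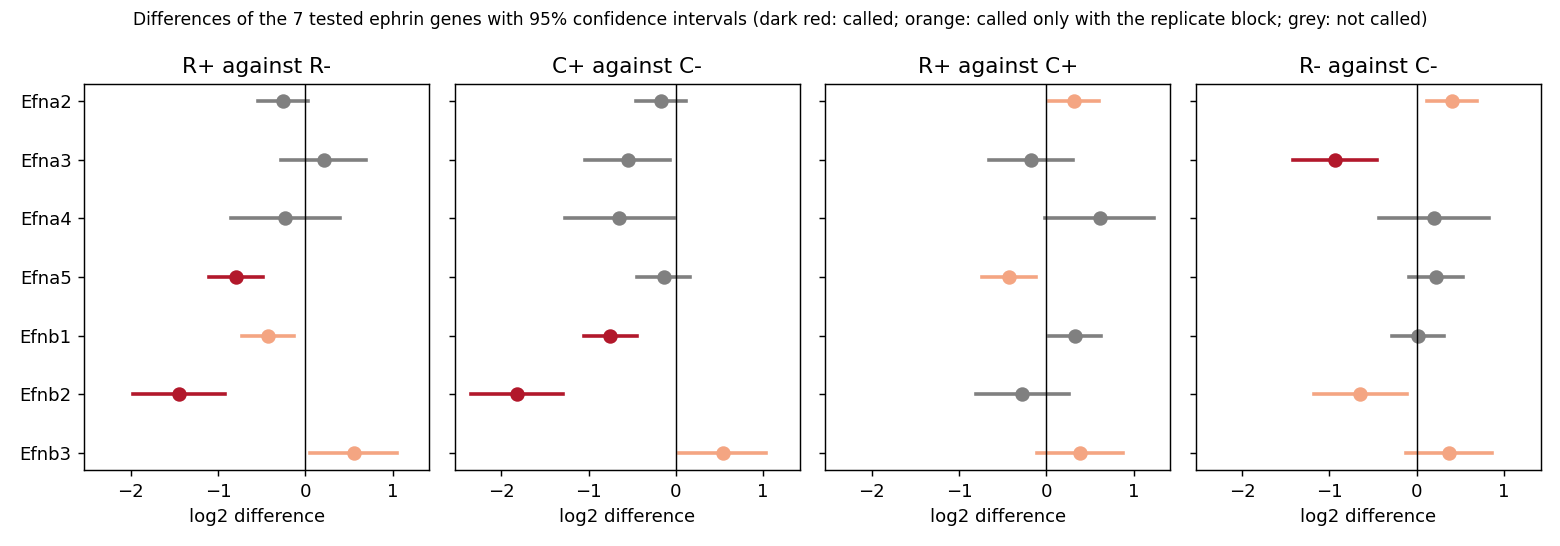
Log2 differences of the 7 tested ephrins in 4 contrasts (horizontal axis, log2 scale), each point with its 95% interval, dark red where called, orange where called with the replicate block alone and grey where not called. Efnb2 lies farthest from 0, at -1.45 in the rostral and -1.82 in the caudal comparison of 5HT neurons with the other cells.

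A further aim of the study was to compare rostral with caudal 5HT neurons. Between R+ and C+, 0 of the 7 ephrins were called by limma (lowest adjusted p = 0.0849, for Efna5), beside 7.32% of all genes called. At an unadjusted p under 0.05 there were 3, and the share of all genes at that looser threshold is not given here. With the replicate block 2 were higher in R+ (Efna2 and Efnb3) and 1 was lower (Efna5, adjusted p = 0.026), beside 21.8% of all genes. Efna5 gave -0.43 ± 0.14 and did not overlap between these groups. Efnb3 gave 0.39 ± 0.23 (adjusted p = 0.0227 with the block), but with the beta-actin ratio as a covariate its sign turned, to -0.16.

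Between the negative groups R- and C-, 1 ephrin was called, Efna3, beside 2.83% of all genes. With the replicate block 2 were higher in R- (Efna2 and Efnb3) and 2 lower (Efna3 and Efnb2), beside 10.2%. Efnb2 gave -0.65 there (adjusted p = 0.223, and 0.0141 with the block), with every R- array under every C- array. Efnb3 gave 0.37 (adjusted p = 0.0477 with the block) and -0.09 with the beta-actin covariate. Fitted over all kept probe sets with the block, Efnb3 was not called there (adjusted p = 0.0661). These contrasts share arrays with the comparisons within domains, so their values are not independent of them.

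For 5HT neurons against other cells, the contrast of rostral and caudal differences called 0 of the 7 ephrins, beside 1.17% of all genes. The lowest adjusted p by limma was 0.255. With the replicate block this contrast also called 0, beside 2.65%. At an unadjusted p under 0.05 there were 2, and the share of all genes at that threshold is not given here. The pair under 0.05 included Efna5 at -0.65 and Efna3 at 0.76 ± 0.32 (adjusted p = 0.589).

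**Figure D4:**
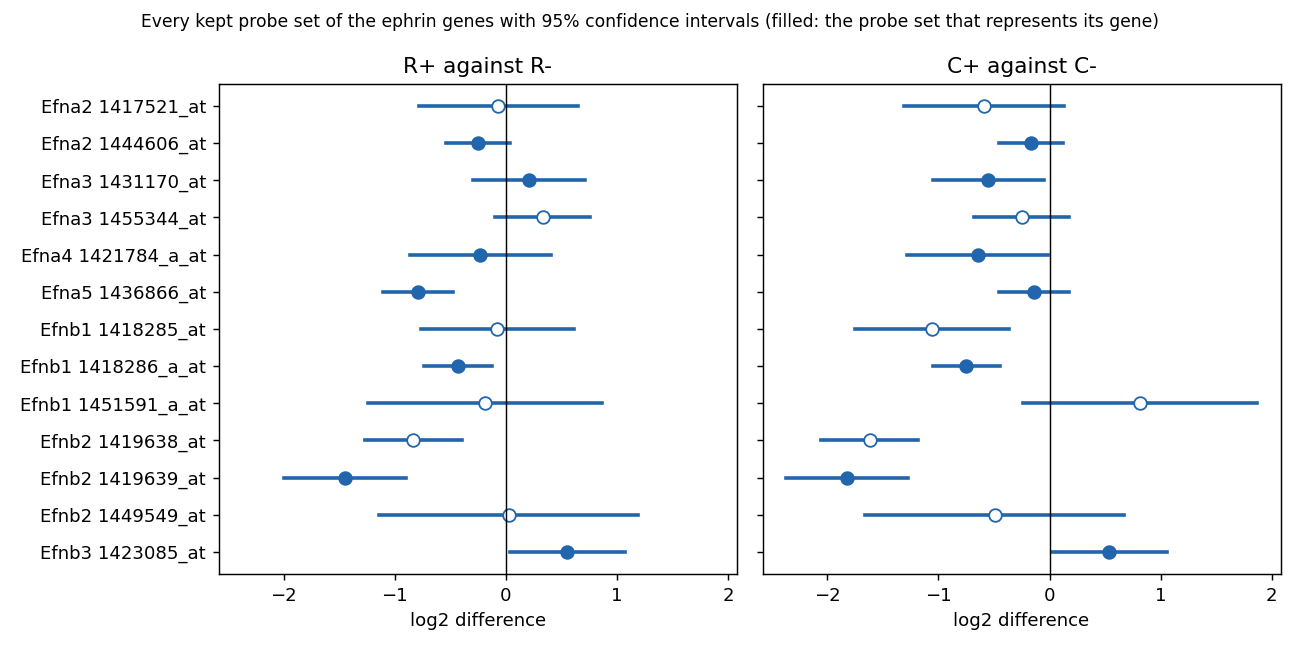
Log2 differences of all 13 kept ephrin probe sets, R+ against R- and C+ against C- (horizontal axis, log2 scale), each with its 95% interval from the fit over probe sets and filled where it represents its gene. The 2 brighter Efnb2 probe sets both lie under 0 in both domains, while the 3 Efnb1 probe sets differ in sign in the caudal comparison.

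For each called ephrin, the 3 tested genes nearest in pattern were found by the root mean square difference of log2(signal + 10) over the 12 arrays, after centring each gene on its mean. Nearest to Efnb2, whose own SD over the arrays was 0.94, were Stk17b (0.239), Col18a1 (0.240), which encodes a basement membrane collagen, and Evx1os (0.242). Nearest to Efnb1 (SD 0.35) were Ccni (0.113), Lcmt2 (0.130) and Cdk4 (0.131), a cell cycle kinase. Nearest to Efna5 (SD 0.32) were Rassf2 (0.125), Naa50 (0.166) and Bckdhb (0.170), and nearest to Efna3 (SD 0.44) were Adcy1 (0.215), an adenylyl cyclase, Trim62 (0.229) and Tmem132e (0.229). None of these 12 genes is an ephrin.

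Some receptors of these ligands were also called. Of 14 Eph receptors listed, 11 were tested. Between R+ and R-, 1 was higher and 3 were lower, beside 12.2% of all genes called, and the list's median was -0.32 beside -0.014 over all genes. Between C+ and C-, 0 were higher and 3 were lower (6 with the replicate block, beside 22.8% of all genes), beside 13.1% of all genes, with a median of -0.55 beside -0.039. Epha3, a receptor for A ligands such as Efna5, had a mean signal of 371 ± 35.1 in R+ against 1198 ± 66.7 in R-, and of 1417 ± 241 in C+ against 1837 ± 155 in C-. It was lower in rostral 5HT neurons than in rostral other cells (-1.67 ± 0.16, adjusted p = 3.14e-06) and than in caudal 5HT neurons (-1.89 ± 0.16, adjusted p = 1.83e-06). The rostral and caudal differences of Epha3 differed by -1.28 ± 0.22 (adjusted p = 0.00724). Its second probe set was called lower in R+ than in R- (-1.30) and than in C+ (-1.63). For the contrast of differences that probe set gave -1.29 ± 0.37, called with the replicate block alone (adjusted p = 0.274, and 0.0361 with the block).

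Epha5, another EphA receptor, ran the other way, with a mean of 1974 ± 322 in R+ against 1132 ± 231 in R-, and of 1097 ± 48.5 in C+ against 925 ± 198 in C-. It was higher in R+ than in R- (0.80 ± 0.19, adjusted p = 0.00934) and than in C+ (0.83 ± 0.19, adjusted p = 0.015). Its 3 other probe sets gave the same sign in both comparisons and were not called without the block. Epha4 (-0.50, adjusted p = 0.0494) was lower in R+ than in R-. The third receptor called lower there was Epha2, with signals of 17 to 27 in R+ and 127 to 187 in R-. Every R+ array lay under the filter of 107, so Epha2 passed it through other groups and no fold is given. In the caudal domain the 3 lower receptors were Epha4 (-0.79, adjusted p = 0.00275), which binds both classes, Epha7 (-0.86 ± 0.21, adjusted p = 0.0141) and Ephb1 (-0.54, adjusted p = 0.0232).

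Between R+ and C+, 4 receptors were higher and 1, Epha3, was lower, beside 7.32% of all genes called. The higher ones were Epha5, Epha4 (0.59, adjusted p = 0.0356), Ephb1 (1.11 ± 0.15, adjusted p = 0.000246) and the kinase-inactive Ephb6 (1.40 ± 0.33, adjusted p = 0.0198). Between R- and C-, Ephb1 was higher (0.90, adjusted p = 0.00255) and Epha3 lower (-0.61, adjusted p = 0.0494), beside 2.83% of all genes. The second Epha3 probe set gave -0.34 ± 0.26 between R- and C- and was not called (adjusted p = 0.668, and 0.348 with the block). The other 2 Epha4 probe sets were not called without the block, and with it 1 of them was lower in C+ than in C- (adjusted p = 0.0334) and higher in R+ than in C+ (adjusted p = 0.0236). Rostral 5HT neurons carried less Epha3 and more Epha5 and Ephb1 signal than caudal ones, while no ephrin was called between them without the block. Receptor values with the beta-actin ratio as a covariate are not given here, and that ratio cannot be told apart from the domain.

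**Figure D5:**
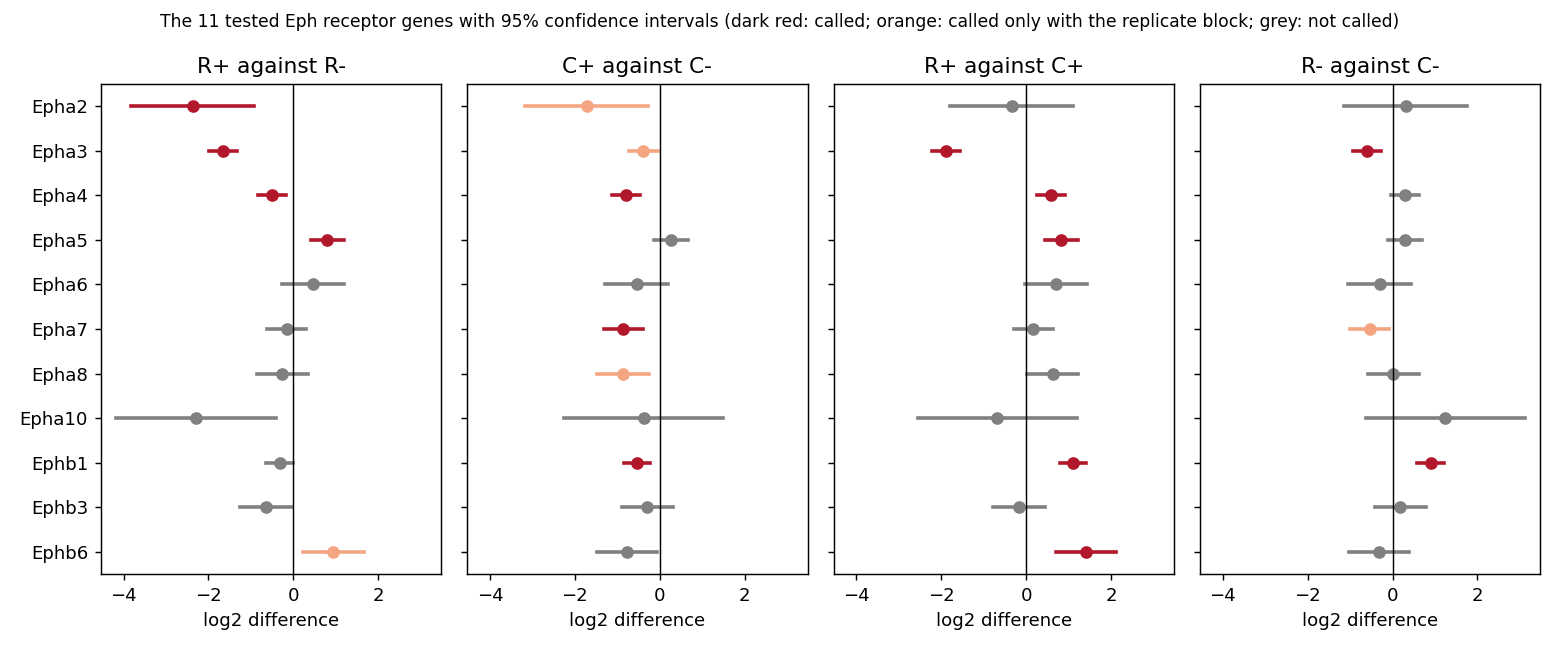
Log2 differences of the 11 tested Eph receptors in 4 contrasts (horizontal axis, log2 scale), each with its 95% interval, coloured by call as for the ephrins. Epha3 lies at -1.67 between R+ and R- and at -1.89 between R+ and C+, while Epha5 lies at 0.80 and 0.83.

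Of 27 listed proteins that act with Eph receptors or ephrins inside or beside the cell, all 27 were tested. Between R+ and R-, 1 was higher and 2 were lower, beside 12.2% of all genes called. Between C+ and C-, 3 were higher and 2 were lower, beside 13.1%. With the replicate block the rostral count was 2 higher and 3 lower, beside 20.9%. Grip2, a PDZ-domain scaffold of the family that binds B ephrin tails, was higher in 5HT neurons of both domains (1.69 ± 0.19, adjusted p = 1.92e-05, and 1.64, adjusted p = 2.27e-05). Its mean signal was 904 in R+ against 271 in R-, and 1386 in C+ against 439 in C-. Pdzrn3, a PDZ-domain ubiquitin ligase, was lower in both (-3.26 ± 0.23, adjusted p = 2.05e-07, and -3.34, adjusted p = 1.33e-07), with a mean of 252 in R+ against 2444 in R-, and of 199 in C+ against 2069 in C-.

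Vav3, an exchange factor recruited by Eph receptors, was lower in R+ than in R- (-1.23 ± 0.18, adjusted p = 0.000235) and than in C+ (-1.64, adjusted p = 4.02e-05). Ret, the GDNF receptor kinase that acts with A ephrins in motor axons, was higher in C+ than in C- (1.17 ± 0.26, adjusted p = 0.0064) and lower in R+ than in C+ (-1.81 ± 0.26, adjusted p = 0.000543). Ngfr, the p75 neurotrophin receptor that acts with A ephrins in retinal axons, was lower in C+ than in C- (-0.74, adjusted p = 0.0122) and in R- than in C- (-0.83, adjusted p = 0.0206), and its rostral and caudal differences differed by 1.24 ± 0.26 (adjusted p = 0.0258). Vav3 and Ret were the 2 partners called between R+ and C+, both lower, beside 7.32% of all genes, and Ngfr was the 1 called between R- and C-, beside 2.83%. With the block, 2 partners were higher and 6 lower between R+ and C+, and 0 were higher and 3 lower between R- and C-, beside 21.8% and 10.2% of all genes. The list's median differences lay between -0.18 and 0.06 over the 5 contrasts.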

How the data were processed

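RNA of 12 samples was hybridised, 3 arrays in each of 4 groups. The authors deposited 1 signal intensity for each probe set and array, made with MAS5 per the submitters' processing notes (its version is not given in the sources used here). These intensities are linear and whole, with a 2% trimmed mean of 500 on each array and array medians of 93 to 121. Probe sets took their gene from the platform annotation: 34945 had 1 symbol and were no control, and 34741 of these matched a RefSeq Entrez number. Probe sets with a signal over 107 on at least 3 arrays were kept (26061), and a gene was represented by its kept probe set of highest mean log2 signal.

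From these, log2(signal + 10) was fitted with limma 3.58.1 in R 4.3.3 (lmFit, eBayes with a trend), with 1 mean per group over all 12 arrays and 5 contrasts, two-sided, Benjamini-Hochberg adjusted over 12845 genes at 0.05. The fit was tested on simulated data with independent noise on each array. Those data held no deviation shared by same-numbered arrays, so the test does not cover that feature. The number of arrays limits the precision.

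The replicate numbers are from the labels. Same-numbered arrays of different groups deviated together from their group means in 18 of 18 pairs of arrays (correlations 0.118 to 0.52). The 36 pairs of unlike number gave -0.398 to 0.273, with 5 over 0.1. A fit with the replicate block therefore stands beside a result where it changes the call. Other alternatives were the filter, offset, scaling, probe set choice, a beta-actin covariate and leaving out arrays. The fit with the block and the beta-actin covariate together was chosen after seeing the data.

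Genes were named by rule: all ephrins, every Eph receptor called, and up to 4 called partners per contrast with the smallest adjusted p. The members and lists were chosen with earlier results of these data known. Ephb2 was not analysed here.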

Additional observations from a re-analysis of the deposited data

How the results depend on the processing

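Of the calls within domains, the caudal Efnb2 call held most widely, in 27 of 27 alternatives (log2 differences -1.95 to -1.31). The rostral calls of Efnb2 and Efna5 each held in 26 of 27. That of Efnb2 (-1.73 to -0.75, the smallest on the mean of probe sets) was lost without replicate 2. That of Efna5 (-0.885 to -0.719) was lost without replicate 3. Between R+ and R- the replicate block called 4 ephrins in place of 2, and leaving out arrays gave 1 to 4. Between C+ and C-, equal array medians and the mean of probe sets each called 1 in place of 2, and leaving out arrays gave 1 to 2. Between R+ and C+ the block called 3 in place of 0, and 0 with the beta-actin covariate added. Between R- and C- the block called 4 in place of 1. That call, of the main Efna3 probe set, was lost (0 called) with no filter, with equal array medians, with every probe set fitted (where the second Efna3 probe set was called), with no trend and with the beta-actin covariate, alone or with the block, and leaving out arrays gave 0 to 1. The contrast of differences called 0 in every alternative run, and it cannot be fitted with only the groups compared. The cause of these changes was not tested.

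Signs turned for values that were not called without the block. Of these, the Efnb3 differences between domains were called with it. On the mean of probe sets, the contrast of differences was 0.22 for Efna2, and R+ against C+ was 0.056 for Efnb2. With the beta-actin covariate, R+ against C+ was 0.26 for Efnb2 and -0.16 for Efnb3, and R- against C- was -0.20 for Efna4, -0.048 for Efnb1 and -0.087 for Efnb3. With the block and the covariate, Efna3 was 0.35 for R+ against C+ and Efna4 -0.20 for R- against C-. For Efnb3 the contrast of differences was -0.076 with equal array medians and -0.076 with the covariate. Leaving out arrays gave -0.013 to 0.46 for Efna3 between R+ and R-, -0.40 to 0.076 for Efna3 between R+ and C+, -0.089 to 0.10 for Efnb1 between R- and C-, and -0.20 to 0.27 for Efnb3 in the contrast of differences. Of 952 recomputed single-gene values, 893 kept direction and call, 21 lost the call, 14 gained one and 24 turned sign.

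Over all genes the calls moved more. Between R+ and C+ 940 genes were called, 2795 with the block, 126 with the block and the covariate, and 146 without replicate 3. Between R- and C- 363 were called, with 1310, 113 and 79 under the same settings. Between R+ and R- 1567 became 2684 with the block and 641 without replicate 3, between C+ and C- 1683 became 2929 and 668, and the contrast of differences went from 150 to 340 and 27.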

Other observations

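For Efnb3 the array of replicate 1 was the highest and that of replicate 2 the lowest in 4 of 4 groups. For Efnb2 the array of replicate 1 was the lowest in 4 of 4 groups. Replicate 1 was the highest in 3 of 4 groups for Efna2, Efna5 and Efnb1. For Efna3 replicate 2 was the highest in 3 of 4 groups and replicate 3 the lowest in 3 of 4. For Efna4 no replicate number was the highest or the lowest in more than 2 of 4 groups. The labels do not say what arrays of one replicate number share.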
